A study of Mus musculus with 29 samples.

Results

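The 38 listed Hox genes of the mouse lie in 4 clusters, HoxA, HoxB, HoxC and HoxD, and they were chosen by name from the family and not by any measured value. They are 38 of 21938 protein-coding genes on the chromosomes examined. Each gene was given a window of its body plus 5 kb on either side. Each cluster was taken from its first to its last listed gene plus 20 kb on either side. Positions are on GRCm38 (mm10).

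Hox genes encode homeodomain transcription factors that give body segments their identity along the head to tail axis. Their order along the chromosome follows the order of their expression along the body, from paralog group 1 at the anterior end to group 13 at the posterior end. The clusters are kept silent by Polycomb proteins where they are not in use. The Cdx homeodomain factors, of which CDX2 is one, are known regulators of Hox genes in the embryo.

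NIH-3T3 cells, a mouse fibroblast line, expressed HA-tagged transcription factors from doxycycline-inducible lentiviral transgenes, and DNA bound by each factor was recovered through the HA tag and sequenced (ChIP-seq). Peak lists exist for 28 of 29 samples, and the other sample is input chromatin. All cells received 500 ng/ml doxycycline overnight and the factors were overexpressed, and no expression was measured in these files. There were 24 constructs. Lists from 2 replicates exist for SOX2-HA, OCT4-HA, FOXA1-HA and BHLHB8-HA. BRACHYURY-HA, CDX2-HA, DLX1-HA, DLX6-HA, DUXBL-HA, EBF1-HA, HLF-HA, MAX-HA, NANOG-HA, PRR3-HA, RHOX11-HA, SIX6-HA, SOX15-HA, TEAD1-HA, THAP4-HA, TOX3-HA and ZFP319-HA have 1 list each. So do the FOXA1 mutants FOXA1_RR-HA and FOXA1_SW-HA, and OCT4-HA expressed together with SOX2-YPET. Comparisons between constructs with 1 list have no replicate check. The lists hold between 52 and 61991 peaks, the read depth behind them is unknown, and the fibroblast label cannot be checked against markers because the files give positions alone.

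The clusters spanned 138 kb for HoxA, 214 kb for HoxB, 156 kb for HoxC and 137 kb for HoxD, on chromosomes 6, 11, 15 and 2. They were richer in G and C than the rest of the genome, at 47.8 to 48.8% against 41.7%. They also held 46.7 to 93.9 coding gene starts per Mb, against 8.27 per Mb elsewhere. Densities are therefore given below against the rest of the genome and also against other gene starts.

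In total 214 peaks of 15 constructs fell in the 4 clusters, and 37 of the 38 Hox genes had a peak of at least 1 construct in their window, against 81.6% of all coding genes. Hoxb13, the most posterior gene of HoxB, was the exception. CDX2-HA, TEAD1-HA, ZFP319-HA and BHLHB8-HA, the last with 2 lists, gave 173 of the 214 peaks. The sequences under the CDX2-HA peaks are shown first, because CDX2-HA had the highest share of cluster peaks with the sequence its own factor prefers, among the factors searched. The lines give, for each cluster, the middle 160 bp of a CDX2-HA peak with the highest number of matches to TTTATNG, a consensus sequence of CDX2, in its central 200 bp, and of a further peak at the start of Hoxb8. Other peaks of HoxA, HoxB and HoxC had as many, and of these the one with most matches in the whole peak and then the lowest start was taken. Bases are from the GRCm38 plus strand, 5′ to 3′, and capitals mark the matches on either strand.

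CDX2-HA at Hoxa4 in HoxA, chr6:52190846-52191005: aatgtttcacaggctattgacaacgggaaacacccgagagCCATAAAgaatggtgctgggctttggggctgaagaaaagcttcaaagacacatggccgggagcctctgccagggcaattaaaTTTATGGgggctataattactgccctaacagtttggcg
CDX2-HA upstream of Hoxb8 in HoxB, chr11:96277975-96278134: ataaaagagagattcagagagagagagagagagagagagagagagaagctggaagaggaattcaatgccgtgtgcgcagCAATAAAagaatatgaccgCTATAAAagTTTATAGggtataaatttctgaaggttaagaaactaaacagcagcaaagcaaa
CDX2-HA at the Hoxb8 start in HoxB, chr11:96281745-96281904: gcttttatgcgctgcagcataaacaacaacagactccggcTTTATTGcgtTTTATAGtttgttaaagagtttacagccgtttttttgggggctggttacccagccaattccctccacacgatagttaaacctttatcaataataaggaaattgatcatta
CDX2-HA at Hoxc8 in HoxC, chr15:102992885-102993044: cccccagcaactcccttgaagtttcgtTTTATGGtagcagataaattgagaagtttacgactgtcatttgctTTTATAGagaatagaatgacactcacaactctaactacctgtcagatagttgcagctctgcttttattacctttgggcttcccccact
CDX2-HA at Hoxd4 in HoxD, chr2:74721867-74722026: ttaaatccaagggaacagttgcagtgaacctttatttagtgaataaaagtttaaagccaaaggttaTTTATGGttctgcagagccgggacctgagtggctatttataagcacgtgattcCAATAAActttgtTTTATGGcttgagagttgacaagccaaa

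The peak at Hoxd4 held 3 matches in the stretch shown, and that upstream of Hoxb8 also held 3. The peaks at Hoxa4, at Hoxc8 and at the Hoxb8 start held 2 each. A match says that the letters are present and not that the factor contacts them.

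CDX2-HA peaks were more dense in the Hox clusters than in the rest of the genome. The list of 25278 peaks placed 35 in the clusters, or 54.3 per Mb against 9.54 per Mb elsewhere, a ratio of 5.69 (exact 95% interval 3.96 to 7.92). Intervals on ratios and shares here are exact binomial (Clopper-Pearson) intervals and cover counting error over peaks only, not the error between libraries. Against windows of 5 kb on either side of all other coding gene starts the ratio was still 4.95 (3.44 to 6.9). In both ratios the cluster side was the whole of the clusters, and gene starts alone are compared below.

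**Figure D1:**
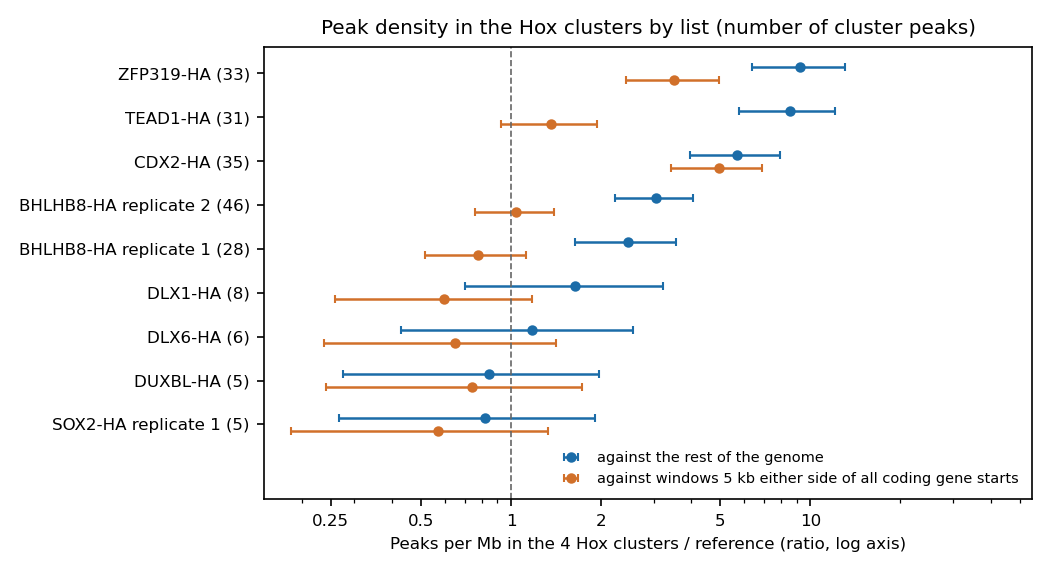
Peaks per Mb in the 4 Hox clusters divided by peaks per Mb in the rest of the genome (blue) or in windows 5 kb either side of all other coding gene starts (orange), on a log axis, for the 9 lists with at least 3 peaks awaited. Bars are exact 95% intervals and numbers in parentheses are cluster peaks. The intervals of CDX2-HA and ZFP319-HA lie above 1 against both references, and those of TEAD1-HA and BHLHB8-HA against the rest of the genome but not against gene starts.

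The number of CDX2-HA peaks differed between the clusters. At the density of the rest of the genome 1.32 peaks would be awaited in HoxA, which held 13, and 1.49 in HoxC, which held 12. HoxB held 6 where 2.04 were awaited and HoxD held 4 where 1.30 were. For scale, the genome was cut into tiles of the length of each cluster. At least 13 CDX2-HA peaks were found in 0.0366% of the tiles of the HoxA length, and at least 12 in 0.200% of those of the HoxC length. The same shares were 11.0% for the 6 peaks in HoxB and 12.3% for the 4 peaks in HoxD. HoxA and HoxC thus stood at the upper end of the genome for CDX2-HA, and HoxB and HoxD did not. The exact intervals of the ratio to the rest of the genome were 5.24 to 16.8 in HoxA and 4.17 to 14.1 in HoxC. They were 1.08 to 6.4 in HoxB and 0.835 to 7.85 in HoxD. All of these overlap and come from 1 library, so the difference between clusters is not established.

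The CDX2-HA peaks lay within the gene-bearing stretches more than in the flanks, at 66.0 per Mb from the first to the last Hox gene and 18.8 per Mb in the 20 kb flanks, where only 3 peaks were counted. Of the 38 Hox gene windows, 22 (57.9%) held a CDX2-HA peak, against 28.8% of all coding genes. Hox gene windows were not longer than others, with a median of 13.5 kb against 27.4 kb. In windows of equal length, 5 kb on either side of the gene start, 19 Hox genes (50.0%) held a CDX2-HA peak, against 9.99% of all genes.

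By paralog group, CDX2-HA peaks were found at 10 of the 11 genes of central groups 5 to 8. They were found at 6 of the 11 anterior genes of groups 1 to 4 and at 6 of the 16 posterior genes of groups 9 to 13. Neighbouring windows overlap, so that 1 peak can count for several genes and the counts are not independent. In HoxB the peaks stood at Hoxb6, Hoxb7, Hoxb8 and Hoxb9 and at a site upstream of Hoxb9, and the windows of Hoxb1 to Hoxb5 held none. In HoxD they stood at Hoxd3, Hoxd4 and Hoxd8. These descriptions of position were made after the values were seen.

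**Figure D2:**
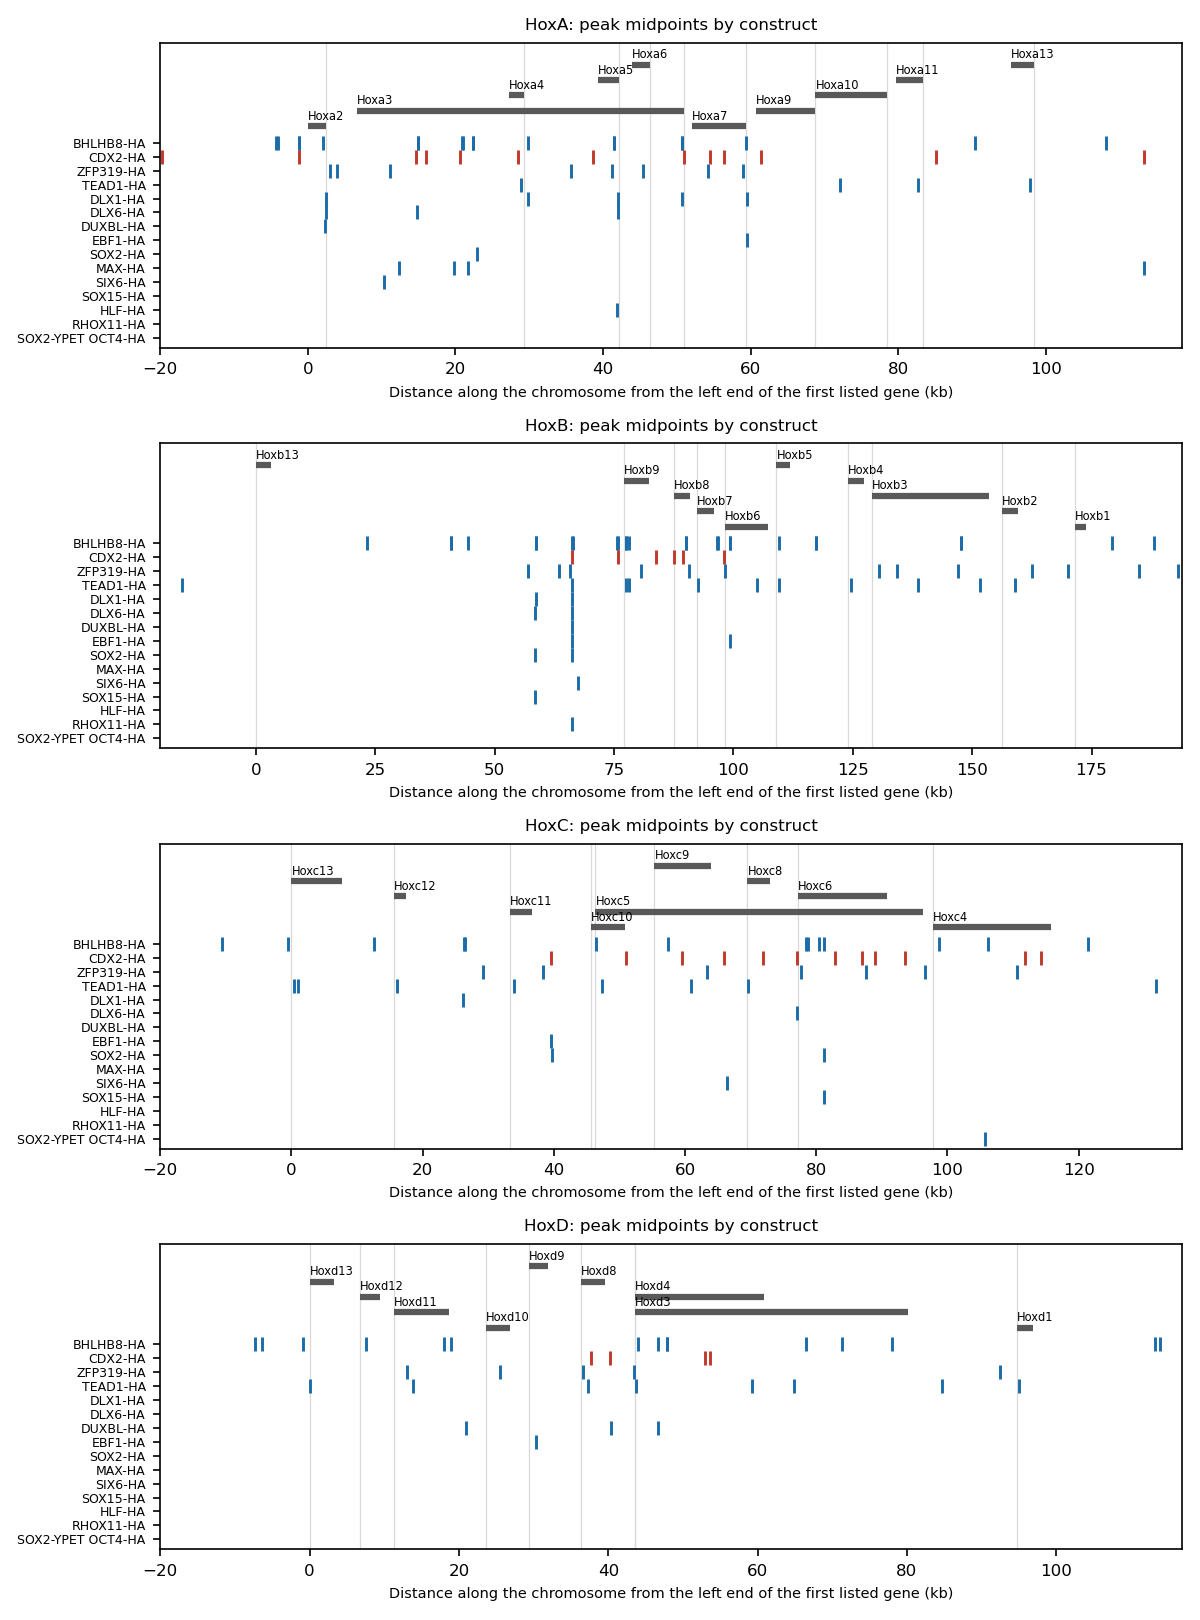
Midpoints of the peaks of each construct (ticks, CDX2-HA in red, duplicate lists of a construct drawn together) along the 4 clusters. The horizontal axis is the distance in kb from the left end of the first listed gene, grey bars are gene bodies and grey lines gene starts. Most CDX2-HA ticks of HoxA lie between Hoxa3 and Hoxa9, those of HoxC all lie to the right of Hoxc11, and those of HoxD between Hoxd8 and Hoxd4, and the column of ticks 66 kb into HoxB is the most widely shared site.

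CDX2-HA peaks in the clusters stood close to gene starts far more than elsewhere. Of the 35, 15 (42.9%) lay within 1 kb of a coding transcript start, against 2.19% of the whole list. Such sequence made up 17.2% of the clusters and 2.44% of the rest of the genome. Per Mb of start-proximal sequence, CDX2-HA had 135 peaks in the clusters and 8.34 elsewhere, a ratio of 16.2 (9.01 to 27.0). Farther from starts the ratio was 3.91 (2.39 to 6.05). The peaks nearest to a start were 31 bp upstream of a Hoxd4 start and 80 bp upstream of the Hoxb8 start. Next were peaks 88 bp upstream of a Hoxa7 start and 90 bp upstream of the Hoxb6 start. Distances ran from the peak midpoint to the nearest coding transcript start of the gene, and these peaks were picked after the values were seen. For Hoxd4 and Hoxa7 this start lies inside the annotated gene body and not at its outer start. Hoxd4 belongs to the anterior groups of the family and Hoxb6, Hoxa7 and Hoxb8 to the central ones.

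The CDX2 consensus TTTATNG was found, on either strand, in the central 200 bp of 27 of the 35 cluster peaks (77.1%, 59.9 to 89.6). The share was 53.7% of the other 25243 peaks of the list. It was 13.1% in windows of the same length 5 kb downstream of the list's peaks that touch no peak of any list, and 11.0% in 200 bp tiles of the clusters themselves. The consensus was thus no more frequent in cluster sequence as a whole than in sequence without peaks elsewhere. More than 1 match was found in 12 of the cluster peaks, with 2 in 9, 3 in 2 and 4 in 1. Of the 5 sequences shown above, that at Hoxd4 is the middle of the peak with 4 matches in its central 200 bp.

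**Figure D3:**
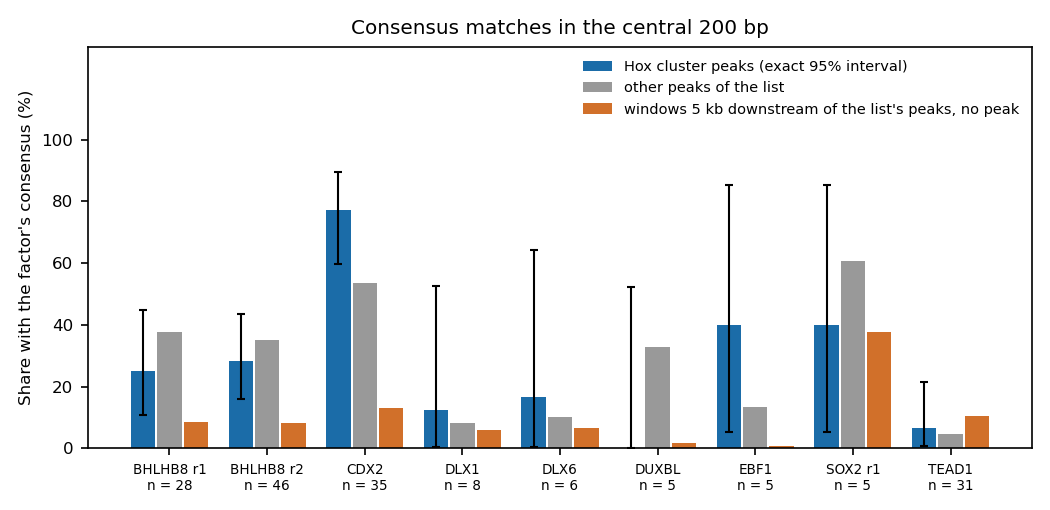
Share of peaks with a match to the consensus of the precipitated factor in the central 200 bp, for peaks in the Hox clusters (blue, with exact 95% intervals and the number of peaks as n), other peaks of the same list (grey) and windows 5 kb downstream of the list's peaks that touch no peak (orange). CDX2-HA is at 77.1, 53.7 and 13.1%, and TEAD1-HA is at 10.5% or less in all 3.

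ZFP319-HA, a zinc finger protein, had the largest ratio of cluster to genome density. It placed 33 of 14645 peaks in the clusters, or 51.2 per Mb against 5.52, a ratio of 9.27 (6.38 to 13). Against other gene start windows the ratio was 3.51 (2.41 to 4.94). All 4 clusters shared in this, with 8 peaks in HoxA, 13 in HoxB, 7 in HoxC and 5 in HoxD. Among 12404 tiles of the HoxB length, 0 held 13 ZFP319-HA peaks, and the shares for the other clusters were 0.125% for HoxA, 0.482% for HoxC and 2.01% for HoxD.

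ZFP319-HA peaks were in the windows of 28 Hox genes (73.7%), against 27.9% of all coding genes. In start windows 21 genes (55.3%) held one, against 13.7%. By paralog group the peaks reached 10 of 11 genes in groups 1 to 4, 10 of 11 in groups 5 to 8 and 8 of 16 in groups 9 to 13. Hoxb1, the most anterior gene of HoxB with a role in the hindbrain, had a ZFP319-HA peak and no other. Unlike CDX2-HA, ZFP319-HA exceeded the rest of the genome more away from gene starts than near them. The ratio was 8.05 (5.04 to 12.2) beyond 1 kb, with 22 peaks, and 4.6 (2.29 to 8.26) within 1 kb, with 11 peaks. Those intervals overlap. No consensus was searched for this factor.

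TEAD1-HA, the DNA-binding partner of the Hippo pathway coactivators, placed 31 of 14959 peaks in the clusters. The density was 48.1 per Mb against 5.64, a ratio of 8.52 (5.79 to 12.1). Against other gene start windows it was 1.36 (0.926 to 1.94), an interval that includes 1. The list as a whole was start-proximal, with 45.3% of its peaks within 1 kb of a transcript start, and 21 of the 31 cluster peaks (67.7%) were so too. Within 1 kb of starts the ratio was 1.81 (1.12 to 2.77), and beyond it 5.92 (2.84 to 10.9) with 10 peaks.

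TEAD1-HA had 4 peaks in HoxA, 11 in HoxB, 8 in HoxC and 8 in HoxD. As many were found in 2.90, 0.0322, 0.0411 and 0.0258% of genome tiles of the same lengths, so that HoxA held the least unusual number. Of the 38 windows 28 (73.7%) held one, against 44.0% of all coding genes, and in start windows 24 (63.2%) against 34.4%. The posterior genes of groups 9 to 13 had TEAD1-HA peaks in 13 of 16 windows, against 6 of 16 for CDX2-HA. Groups 1 to 4 had 8 of 11 and groups 5 to 8 had 7 of 11. Hoxa10, a posterior gene active in the uterus and limb, had TEAD1-HA peaks and no other.

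The TEAD consensus CATTCC was rare in the TEAD1-HA list, which bears on how its peaks are read. It was in 2 of 31 cluster peaks (6.45%, 0.791 to 21.4), in 4.51% of the other peaks and in 10.5% of the windows without peaks. The list labelled TEAD1-HA therefore held the consensus less often than sequence without peaks, and in the clusters the interval of the share included that level. The reason was not tested.

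**Figure D4:**
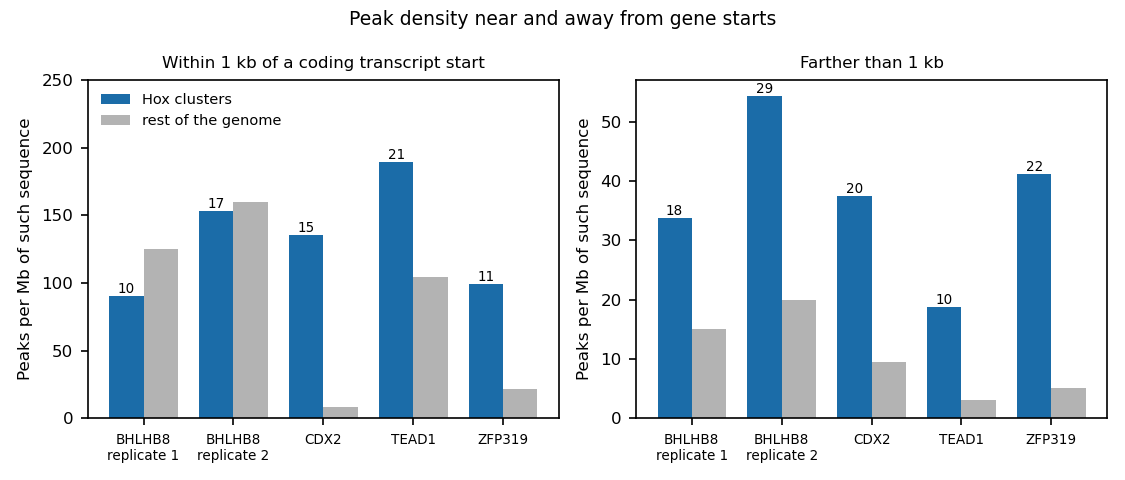
Peaks per Mb of sequence within 1 kb of a coding transcript start (left) and farther away (right), in the Hox clusters (blue, with the number of peaks above each bar) and in the rest of the genome (grey), for the 5 lists with at least 28 cluster peaks. Near starts CDX2-HA stands at 135 against 8.34 and BHLHB8-HA replicate 2 at 153 against 160, and farther away all 5 lists are higher in the clusters.

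BHLHB8-HA, a basic helix-loop-helix factor of secretory cells, has 2 lists and allows a look at replicate error. Replicate 1 placed 28 of 46842 peaks in the clusters, a ratio of 2.45 (1.63 to 3.55), and replicate 2 placed 46 of 61991, a ratio of 3.05 (2.23 to 4.07). The mean ratio was 2.75 ± 0.419 (SD, n = 2). The share of the list in the clusters was 1.24 times as high in replicate 2 (0.76 to 2.06), an interval that includes 1. Against other gene start windows the ratios were 0.778 and 1.04, so that the direction of the mean turned to 0.909. Within 1 kb of starts the ratios to the rest of the genome were 0.72 (0.345 to 1.32) and 0.957 (0.558 to 1.53). Beyond 1 kb they were 2.25 (1.33 to 3.55) and 2.72 (1.82 to 3.9). Compared with like sequence, BHLHB8-HA was thus denser in the clusters away from gene starts, while near starts both intervals include 1. Within the clusters the peaks were still denser near starts, at 90.1 and 153 per Mb, than beyond 1 kb, at 33.7 and 54.3 per Mb. Start-proximal sequence made up 17.2% of the clusters and 2.44% of the rest of the genome, which also enters the ratios of 2.45 and 3.05.

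The positions of the cluster peaks overlapped in part between the 2 lists. Of the 28 cluster peaks of replicate 1, 20 (71.4%) overlapped a peak of replicate 2, against 53.3% for the whole list. Of the 46 cluster peaks of replicate 2, 20 (43.5%) overlapped replicate 1. No share over the whole replicate 2 list was counted, so the 43.5% has no reference and is not read as particular to the clusters. Windows with a peak numbered 17 of 38 in replicate 1 (44.7%, against 56.4% of all genes) and 27 in replicate 2 (71.1%, against 69.1%). The posterior genes differed most between the lists, with 3 of 16 in replicate 1 and 10 of 16 in replicate 2. The E-box CAGCTG was in 25.0% (10.7 to 44.9) and 28.3% (16.0 to 43.5) of the cluster peaks, against 37.8 and 35.1% of the other peaks and 8.40 and 8.36% of windows without peaks.

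The other homeodomain factors with enough peaks for a ratio, 3 in number, were less dense in the clusters than CDX2-HA. DLX1-HA, a factor of forebrain neurons, placed 8 peaks in the clusters, a ratio of 1.63 (0.705 to 3.22), and DLX6-HA, of the same family, placed 6, a ratio of 1.17 (0.431 to 2.56). DUXBL-HA, a double homeodomain factor, placed 5, a ratio of 0.844 (0.274 to 1.97). The intervals of all 3 include 1. SIX6-HA, an eye factor, had 3 peaks, RHOX11-HA, a germ line factor, had 1, and NANOG-HA and both OCT4-HA lists, from pluripotency factors, had none. Too few peaks were awaited for a ratio in those lists, so a density like that of CDX2-HA could not be read there. The CDX2-HA interval of 3.96 to 7.92 does not meet those of DLX1-HA, DLX6-HA and DUXBL-HA, although each of these has 1 library and the difference has no replicate check.

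DLX1-HA, DLX6-HA and DUXBL-HA each had a peak in 7 Hox gene windows (18.4%), against 33.0, 26.5 and 29.7% of all genes, whose windows are longer. In start windows of equal length DLX1-HA was at 15.8% of Hox genes against 18.9% of all genes and DLX6-HA at 10.5% against 13.0%, while DUXBL-HA was at 13.2% against 10.1%. The 7 genes of DLX1-HA were all in HoxA. DLX6-HA had 4 in HoxA and 3 in HoxC, the latter through 1 peak, and DUXBL-HA had 2 in HoxA and 5 in HoxD. All HoxA genes of DLX6-HA and DUXBL-HA were among the 7 of DLX1-HA. RHOX11-HA had none, against 16.3% of all genes.

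SOX2-HA, a stem cell and neural factor, placed 5 of 25049 peaks of replicate 1 in the clusters, a ratio of 0.819 (0.266 to 1.91), and none of the 5692 of replicate 2. In replicate 2 only 1.39 cluster peaks were awaited, too few for a ratio by the rule used here. The mean ratio of 0.41 ± 0.579 (SD, n = 2) counts that list as 0 and is therefore not read as a lower density. A count of 0 allows a share of up to 0.0648% of the replicate 2 list (upper end of the exact interval), above the 0.02% of replicate 1. A lower share in replicate 2 was therefore not detectable. Of the Hox windows, 5 (13.2%, against 28.7% of all genes) held a replicate 1 peak, through 3 of the 5 cluster peaks. EBF1-HA, a B-cell and fat-cell factor, had 5 cluster peaks. Of these, 4 lay in Hox gene windows, and because windows overlap they were counted at 7 genes (18.4%, against 17.3%).

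MAX-HA, the partner of MYC, had 4 cluster peaks and all were in HoxA. Over the 4 clusters 0.934 were awaited, too few for a ratio. Of the 4 peaks, 3 lay in the body of Hoxa3, so that 1 of 38 Hox windows (2.63%) was counted, against 9.55% of all genes. SOX15-HA had 2 cluster peaks, of which 1 lay in 2 overlapping Hox windows (5.26%, against 8.90%) and the other in none. SIX6-HA was at 4 windows (10.5%, against 11.2%) through 2 of its 3 cluster peaks. HLF-HA had 1 cluster peak in 3 overlapping windows (7.89%, against 5.98%), and the SOX2-YPET OCT4-HA list had 1 peak, in Hoxc4 (2.63%, against 7.07%).

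No cluster peak was found in 12 lists, namely SOX2-HA replicate 2 and all lists of the remaining 9 constructs, which held 15791 peaks together. At the density of the rest of the genome 3.85 cluster peaks would be awaited over all of them. The longest was FOXA1-HA replicate 1 with 6033 peaks, 1.47 awaited in the clusters and 10.9% of all genes with a peak. A count of 0 allows up to 0.0611% of that list (upper end of the exact interval). Absence of FOXA1-HA from the Hox clusters was therefore not detectable as such at this list length.

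**Figure D5:**
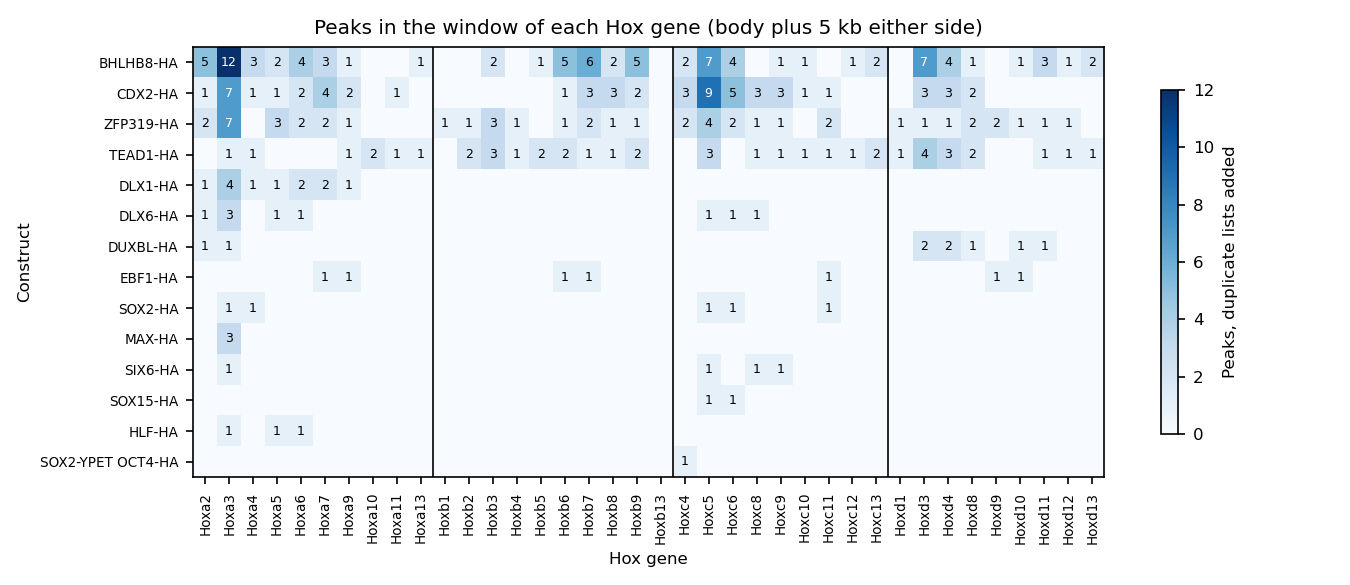
Number of peaks of each construct in the window of each Hox gene (body plus 5 kb either side), with the peaks of duplicate lists added. Vertical lines separate HoxA, HoxB, HoxC and HoxD. Hoxa3 and Hoxc5 with their long windows hold the most peaks, with 41 and 27, and the column of Hoxb13 is empty.

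Across genes, the number of constructs with a peak ran from 0 at Hoxb13 to 11 at Hoxa3, with a median of 5.5 in HoxA, 2.5 in HoxB, 5 in HoxC and 4 in HoxD. Window length bears on these numbers, since Hoxa3 has a 54.3 kb window and Hoxc5 a 60.0 kb one.

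In HoxA, Hoxa3, a gene of the hindbrain and pharyngeal arches, held 41 peaks of 11 constructs over 23 sites. Replicate 1 and replicate 2 of BHLHB8-HA gave 5 and 7 of these, CDX2-HA 7, ZFP319-HA 7, DLX1-HA 4, and DLX6-HA and MAX-HA 3 each. DUXBL-HA, HLF-HA, SIX6-HA, SOX2-HA replicate 1 and TEAD1-HA gave 1 each. In the window of 5 kb around its annotated start Hoxa3 had 6 peaks of 4 constructs. Hoxa6 and Hoxa2, each with a window of 12.4 kb, held 12 and 11 peaks of 6 constructs.

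In HoxB, Hoxb7 held 13 peaks and Hoxb6 held 10, both of BHLHB8-HA, CDX2-HA, EBF1-HA, TEAD1-HA and ZFP319-HA. Hoxb9 held 10 peaks of 4 constructs, the same without EBF1-HA. Hoxb2, Hoxb4 and Hoxb5 had peaks of 2 constructs each. In HoxC, Hoxc5 held 27 peaks of 8 constructs, but the annotated body of 50.0 kb includes a long transcript across its neighbours. With the 3.42 kb body of the RefSeq annotation Hoxc5 held 4 peaks of 3 constructs. Hoxc6 held 14 peaks of 6 constructs and Hoxc8 held 7 of 5, with 3 CDX2-HA peaks among those of Hoxc8.

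In HoxD, Hoxd3 held 17 peaks, Hoxd4 13 and Hoxd8 8, each of 5 constructs, with TEAD1-HA giving 4, 3 and 2. The annotated starts of Hoxd3 and Hoxd4 lie 2 bp apart, so their windows overlap, and with RefSeq bodies Hoxd4 held 4 peaks of 2 constructs. The gene pairs of different clusters most alike in their constructs shared all of a short list. Hoxb3 and Hoxd12 had BHLHB8-HA, TEAD1-HA and ZFP319-HA, a Jaccard index of 1 over 3 constructs. Hoxa9 shared 5 of 6 constructs with Hoxb6 and also with Hoxb7 (0.833). The index counts constructs among 24 and takes no account of the number of peaks.

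When touching peaks of all constructs were merged, the clusters held 145 sites, or 225 per Mb (exact Poisson 95% interval 190 to 265), against 63.6 per Mb elsewhere. HoxA had 37 sites (267 per Mb), HoxB 38 (178), HoxC 40 (257) and HoxD 30 (219). The Poisson intervals of the 4 clusters overlapped. Of the 145 sites, 116 (80.0%, 72.6 to 86.2) held 1 construct, against 76.3% elsewhere, and 10 (6.9%) held 3 or more, against 13.5%. Sites were at promoters (58, 40.0%), in introns (35), between genes (29) and in other annotated sequence. The higher site density in the clusters therefore came with no larger share of sites that several constructs had in common.

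Of the 145 sites, 1 had 10 constructs. It spanned chr11:96259788-96261061 in an intron of the noncoding gene Gm53, 11.0 kb upstream of Hoxb9, in the stretch of 74.0 kb between Hoxb13 and Hoxb9. That stretch held 9 sites and 27 peaks, although Hoxb13 itself had none in its window. The constructs were BHLHB8-HA, CDX2-HA, DLX1-HA, DLX6-HA, DUXBL-HA, EBF1-HA, RHOX11-HA, SOX2-HA, TEAD1-HA and ZFP319-HA. Peaks of 9 of the 10 covered the same 132 bp. The sequence around it is shown because it is the most shared site of the clusters, on the plus strand of GRCm38. Capitals mark only a match to the AP-1 consensus TGANTCA. The stretch also holds, in small letters, CAGCTG of BHLHB8 and TAATTA, the consensus searched for DLX1 and DLX6. GGAATG, the TEAD consensus CATTCC read on the other strand, is present too. Which of these letters, if any, the factors contact was not tested.

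Shared HoxB site upstream of Hoxb9, chr11:96260437-96260636: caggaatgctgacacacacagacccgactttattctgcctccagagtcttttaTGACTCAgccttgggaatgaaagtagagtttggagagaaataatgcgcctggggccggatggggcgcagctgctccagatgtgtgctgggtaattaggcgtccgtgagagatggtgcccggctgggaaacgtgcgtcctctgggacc

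The 6 microRNAs of the clusters all had a peak within 5 kb, against 51.0% of 2202 annotated microRNA genes. Mir196a-1, whose window takes in the most shared site upstream of Hoxb9, had 15 peaks of 11 constructs. The other 5 had peaks of 1 to 3 constructs. TEAD1-HA was at 5 of the 6, against 12.9% of all microRNA genes, and CDX2-HA at 4, against 9.04%. These peaks are also among the cluster peaks counted above.

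The AP-1 consensus, which the FOS and JUN proteins bind, was found in 3.75% of 200 bp tiles of the clusters. In cluster peaks it was in 4 of 35 for CDX2-HA (11.4%, 3.2 to 26.7), 1 of 31 for TEAD1-HA and 0 of 33 for ZFP319-HA. In the other peaks of these lists the shares were 18.6, 2.04 and 7.43%. BHLHB8-HA had it in 1 of 28 and 1 of 46 cluster peaks, against 18.6 and 10.1% of its other peaks. SOX2-HA replicate 1 had it in 3 of 5 (60.0%, 14.7 to 94.7), against 36.9%. In DLX1-HA, DLX6-HA, DUXBL-HA and EBF1-HA, each with 5 to 8 cluster peaks, at most 1 per list held it. In their other peaks the shares were 34.0, 34.4, 18.9 and 26.7%. With so few cluster peaks the intervals reached up to 52.2 to 71.6% and include those shares, so a lower share in the clusters could not be read.

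The next most shared site in HoxB was chr11:96252574-96253230, also in an intron of Gm53, with BHLHB8-HA, DLX1-HA, DLX6-HA, SOX15-HA and SOX2-HA. In HoxA, the site at the start of Hoxa2, a gene of the hindbrain and second arch, had BHLHB8-HA, DLX1-HA, DLX6-HA and DUXBL-HA. In HoxA 4 further sites had 3 constructs, nearest to Hoxa5, to Hoxa7 and, for 2 of them, to Hoxa3. The Hoxa5 site had DLX1-HA, DLX6-HA and HLF-HA and the Hoxa7 site BHLHB8-HA, DLX1-HA and EBF1-HA. In HoxC the sites with 3 constructs lay 6.04 kb upstream of Hoxc10 (CDX2-HA, EBF1-HA and SOX2-HA) and 7.29 kb upstream of the nearest Hoxc6 start (BHLHB8-HA, SOX15-HA and SOX2-HA). In HoxD the site at the shared Hoxd3 and Hoxd4 start had BHLHB8-HA, TEAD1-HA and ZFP319-HA.

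Among the 4 constructs with most cluster peaks, at most 16.1% of the cluster peaks of 1 overlapped another. Set against the share elsewhere, some pairs were higher and others lower. Of the 35 CDX2-HA cluster peaks, 3 (8.57%, 1.8 to 23.1) overlapped TEAD1-HA, against 0.194% elsewhere, and 2 (5.71%, 0.7 to 19.2) overlapped ZFP319-HA, against 1.25%. Overlap of CDX2-HA with BHLHB8-HA was 14.3% in the clusters (4.81 to 30.3) and 12.9% elsewhere. TEAD1-HA overlapped BHLHB8-HA at 5 of 31 cluster peaks (16.1%, 5.45 to 33.7), against 29.0% elsewhere. ZFP319-HA did so at 3 of 33 (9.09%, 1.92 to 24.3), against 18.4%. Both of these intervals include the share elsewhere. TEAD1-HA overlapped ZFP319-HA at 2 of 31 (6.45%, 0.791 to 21.4), against 3.78%. The overlap of CDX2-HA and TEAD1-HA rests on 3 peaks, of which 1 is at the site upstream of Hoxb9. The others, at Hoxa4 and Hoxd8, share only the edges of the peaks. The share elsewhere is also an unlike reference, since 42.9% of the CDX2-HA cluster peaks were within 1 kb of a start, against 2.19% of the list. The TEAD1-HA list had 45.3% of its peaks there, and overlap among start-proximal peaks alone was not compared.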

How the data were processed

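The authors aligned paired-end reads to mm10 with STAR 2.5.3a, removed duplicates with Picard and called peaks per sample with MACS2 2.1.1.20160309. Peaks on blacklisted or input-enriched regions were removed. The deposited lists hold positions (chromosome and both ends, in bp) without score or depth. Replicates were not pooled, and groups and replicate numbers came from the labels. The labels do not say that replicates were separate cultures.

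Members and lists were chosen with earlier results of these data known. Peaks sharing at least 1 bp with a window were counted (Python 3.11.15, NumPy 2.4.6, SciPy 1.17.1, Matplotlib 3.10.9). Gene bodies were from GENCODE vM21 and printed sequences from the RefSeq GRCm38 genome. The rest of the genome was chromosomes 1 to 19, X and Y without N bases. Density ratios over the 4 clusters were read for lists with at least 3 peaks awaited there. Promoters are within 1 kb of a coding transcript start. Consensus sequences were searched in the central 200 bp for lists with at least 5 cluster peaks. Named genes were, per cluster, the 3 with most constructs, those without peaks and those nearest to the 2 most shared sites. Others were chosen after their values were seen. No test was run, as the lists hold positions and 20 constructs have 1 list. Counting was checked on simulated peaks. Alternatives are given with their effect in the closing section.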

Additional observations from a re-analysis of the deposited data

How the results depend on the processing

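Over 28 results and 204 alternatives, 183 values stayed within their error or within 1.5 times the count, 20 moved and 1 reversed. Against windows around other coding gene starts the cluster density ratio fell to 0.909 for BHLHB8-HA, a reversal, 0.597 for DLX1-HA, 1.36 for TEAD1-HA and 3.51 for ZFP319-HA. Against all gene windows it was 1.95 for BHLHB8-HA and 5.22 for TEAD1-HA. With peaks over 1 kb from transcript starts alone, but all bases kept in the divisor, it was 2.11 for BHLHB8-HA, 3.32 for CDX2-HA and 5.02 for TEAD1-HA. The ratios of 3.91 for CDX2-HA and 5.92 for TEAD1-HA given above divide by sequence beyond 1 kb only. Start-proximal sequence was 17.2% of the clusters and 2.44% of the rest of the genome, so the 2 kinds of ratio differ. With peaks of at least 300 bp, sites per Mb were 181 in HoxA, 112 in HoxB, 154 in HoxC and 124 in HoxD. Without TEAD1-HA and ZFP319-HA they were 98.2 in HoxB, 161 in HoxC and 146 in HoxD, and without BHLHB8-HA 132 in HoxD. Fewer peaks entered those counts by construction, and the cause of the other changes was not tested. Gene bodies alone gave peaks at 14 Hox genes for CDX2-HA, 16 for ZFP319-HA and 16 for BHLHB8-HA replicate 2, and 10 kb flanks gave 27 for BHLHB8-HA replicate 1. Gene start windows, distal peaks, RefSeq bodies and the lists without TEAD1-HA and ZFP319-HA were added after seeing the data. No paired analysis was possible because the results come from no test. Without depth, differences in library size between lists cannot be removed.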

Other observations

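All 9 genes of the Pbx, Meis and Pknox cofactors, homeodomain partners that bind DNA together with Hox proteins, had a peak, against 81.6% of all coding genes, in windows of up to 323 kb. Meis1 had 73 peaks of 14 constructs in a 149 kb window, among them 9 of CDX2-HA and 11 and 8 of BHLHB8-HA. Pbx3 had 10 CDX2-HA peaks in a 212 kb window, and Pbx2, Pbx4, Meis3, Pknox1 and Pknox2 had none of CDX2-HA. The 8 Polycomb and trithorax genes examined, whose products silence or maintain Hox expression, all had a TEAD1-HA peak, against 44.0% of all coding genes. Their windows were 13.9 to 87.9 kb. Each BHLHB8-HA list had a peak at 7 of these 8 genes, against 56.4 and 69.1% of all coding genes. TEAD1-HA was singled out after the values were seen. Of the 8 genes flanking the clusters, 4 had a CDX2-HA peak, against 28.8% of all coding genes. These were Skap1, Skap2, Mtx2 and Lnpk, with windows of 62.6 to 305 kb, and Evx1 and Evx2, homeobox neighbours of HoxA and HoxD, had none.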
